A study of Arabidopsis thaliana with 12 samples.

Results

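Cytochrome P450 genes of Arabidopsis thaliana were followed through flower development and stem in plants with reduced activity of the auxin response factors ARF6 and ARF8. Members were the probe sets of 1 gene whose symbol in the annotation of the array is CYP followed by a family number, a letter and a gene number, and whose signal reached 100 in at least 1 of 12 arrays. Of 22 probe sets with such a symbol, 14 reached that signal, out of 9737 genes with a kept probe set of 1 gene in the series. All 14 belong to clan 71, 13 of them to the CYP71B subfamily, and the remaining one is CYP78A9. The RefSeq gene table lists 225 genes and pseudogenes with such a symbol, 145 of them in clan 71, so the probe annotation covers a small share of the family and no other clan can be set against clan 71 here.

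The 8 probe sets under the floor were CYP51G2 of clan 51 and, in clan 71, CYP71B16, CYP71B21, CYP71B25, CYP71B29, CYP71B36, CYP79A2 and CYP84A4. The highest signals just outside the floor were 96.0 for CYP51G2 and 91.4 for CYP84A4, and the member just inside it, CYP71B5, reached 114.1.

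The 3 genotypes were arf6 arf8, which lacks both factors, the plants whose titles read arf6/arf6 ARF8/arf8, and wild-type Columbia. The study's design text gives the intermediate genotype with the roles of both genes exchanged, and under either reading 1 functional copy remains of the 4 that wild-type carries. Each genotype was sampled once as flowers of stages 1-10, 11-12 and 13-14 and once as about 0.5 cm of stem taken just under the inflorescence, all from untreated plants after 6 weeks in long days. Whole flowers were used, so fewer cells of a type and less RNA per cell cannot be told apart. In Arabidopsis the loss of both factors is known to arrest flowers as closed buds with short stamens and petals.

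Cytochrome P450 enzymes bind haem and insert oxygen into small molecules, using electrons passed on by a reductase at the endoplasmic reticulum. In plants they fall into clans named by a founding family. Clan 71 holds most of the enzymes of plant secondary metabolism, among them those for phenylpropanoids, terpenoids, glucosinolates and indole compounds. CYP71B31 is known to oxidise linalool, a floral terpene alcohol, CYP71B6 to convert indole-3-acetonitrile to indole-3-carboxylic acid, and CYP78A9 to promote the growth of carpels and fruits.

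Signals are on a linear scale and were made comparable between arrays by the authors' scaling to a common trimmed mean. Median signals of the 12 arrays lay between 191.9 and 235.3, and the share of probe sets at or above 100 was 63.3% to 66.7%. The arf6/arf6 ARF8/arf8 arrays of stages 1-10 and 13-14 stood apart, in that 936 and 1012 probe sets were at least 2-fold off the wild-type signal, against 397 at stages 11-12 and 166 in stem. Between arf6 arf8 and wild-type such probe sets numbered 362, 1325 and 1913 at the 3 flower stages and 732 in stem. With 1 array each, an odd array and an effect of genotype cannot be told apart. In stem, the measured genes of the lists for floral organs (SPT, NGA1), ovule (INO, SPL) and tapetum (AMS, EMS1) all fell relative to stage 1-10 flowers, SPT by the least (-0.70) and AMS by the most (-3.07), and 3 of 7 pollen genes fell. Of the 3 secondary wall genes 0 passed in stem, with a median of -0.20, and the photosynthesis gene RCA (0.31) did not pass.

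Of the P450 genes, 7 of 14 differed in older flowers, here stages 11-12 and 13-14 in 1 phase, between arf6 arf8 and wild-type (limma, adjusted p below the threshold of 0.05), where 5.96% of all 17642 kept probe sets did. CYP71B31, CYP71B27 and CYP71B38 fell (3.11% of all probe sets were lower), and CYP71B23, CYP71B26, CYP71B6 and CYP71B28 rose (2.86% were higher). The genes that fell reached a signal of 100 only in older flowers of wild-type or arf6/arf6 ARF8/arf8. The floor thus admitted them through arrays where they are high, and their share of the count is not independent of it. The median difference over the 14 genes was 0.52 on the log2(signal + 50) scale, with 10 above 0, beside a median of 0.05 over all probe sets, of which 54.1% lay above 0. The added 50 makes differences on this scale understate the change of dim transcripts. Without the wild-type stage 11-12 array the members' median was 0.33. The count was 0 without the wild-type stage 13-14 array, 1 without the arf6 arf8 stage 13-14 array and 4 without the wild-type stage 11-12 array. In flower arrays alone, with 2 genes passing, the calls of CYP71B31, CYP71B38, CYP71B23, CYP71B6 and CYP71B28 ended, with adjusted p of 0.0579, 0.0804, 0.0613, 0.0679 and 0.131. Each genotype and tissue has 1 array, so the p-values rest on a residual spread that holds both array error and any change of a genotype's effect from tissue to tissue.

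The linalool oxidase gene CYP71B31 (AT3G53300) had signals of 1.1, 1.4 and 3.9 in arf6 arf8 flowers of stages 1-10, 11-12 and 13-14. In arf6/arf6 ARF8/arf8 flowers it had 1.1, 65.6 and 3029.8, and in wild-type flowers 1.6, 839.1 and 6655.0. Stem signals were 0.9, 2.6 and 1.4 in the same order of genotypes. The transcript was thus bright in wild-type flowers of stages 13-14, lower in flowers with 1 remaining gene copy, and without a signal above 4 in any arf6 arf8 sample. The fitted difference between arf6 arf8 and wild-type in older flowers was -5.54 (SE 0.83, adjusted p = 0.00935, limma). The call ended without the wild-type array of stage 13-14 (adjusted p = 0.1) or 11-12 (0.0517), and the difference was -3.66 without the arf6 arf8 stage 13-14 array.

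CYP71B27 (AT1G13070), which RefSeq annotates as a transcribed pseudogene, followed a similar course. Its signals at stages 1-10, 11-12 and 13-14 were 23.2, 10.7 and 55.9 in arf6 arf8, 35.4, 43.3 and 248.9 in arf6/arf6 ARF8/arf8, and 17.8, 127.3 and 660.0 in wild-type. At both older stages the intermediate genotype lay between the others, whereas at stage 1-10 all values were low. Stem signals were 13.5 in arf6 arf8, 34.5 in arf6/arf6 ARF8/arf8 and 69.6 in wild-type. The fall in older flowers was -2.15 (SE 0.349, adjusted p = 0.0128), and the call ended without the stage 13-14 array of wild-type (0.149) or of arf6 arf8 (0.12).

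CYP71B38 (AT3G44250) had 46.7, 42.0 and 30.8 at the 3 stages in arf6 arf8, 75.0, 114.2 and 301.7 in arf6/arf6 ARF8/arf8, and 64.9, 158.3 and 489.7 in wild-type. In both genotypes with a remaining copy each later stage had the higher signal, and in arf6 arf8 all values were under 50. Stem signals were also under 50, at 43.6 in arf6 arf8, 45.3 in arf6/arf6 ARF8/arf8 and 23.7 in wild-type. The fitted fall was -1.96 (SE 0.362, adjusted p = 0.0199). Without the wild-type stage 13-14 array it was -1.50 (0.22), and without the arf6 arf8 stage 13-14 array -1.25 (0.134).

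**Figure D1:**
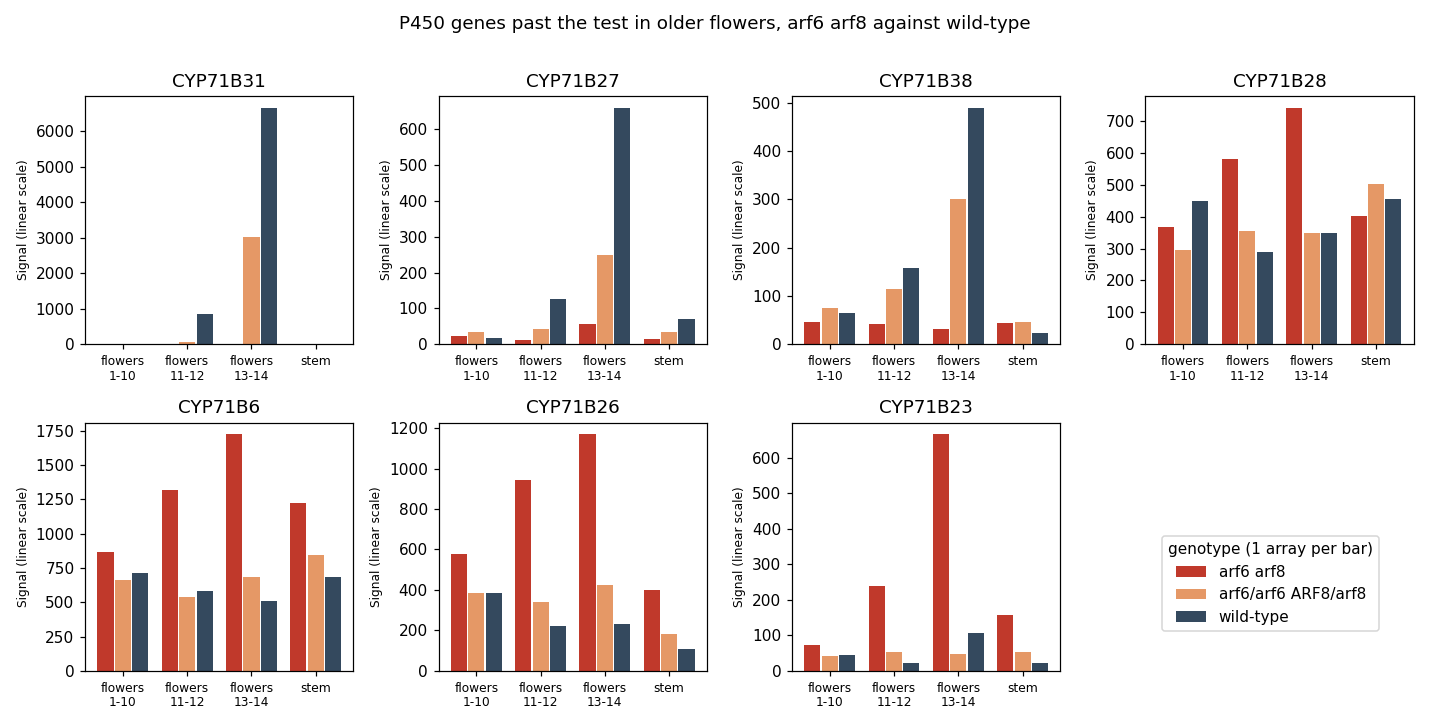
Signal on a linear scale (vertical axis, a separate scale for each gene) in flowers of 3 stage classes and in stem, for the 7 P450 genes past the test in older flowers; each bar is 1 array, arf6 arf8 left, arf6/arf6 ARF8/arf8 middle and wild-type right. CYP71B31, CYP71B27 and CYP71B38 are brightest in wild-type at stages 13-14, whereas CYP71B23, CYP71B26, CYP71B6 and CYP71B28 are brightest in arf6 arf8 at that stage.

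The genes that rose did so in the opposite pattern, being brightest in arf6 arf8 flowers of stages 13-14. CYP71B26 (AT3G26290) had 577.0, 942.9 and 1168.8 at the 3 stages in arf6 arf8, 383.3, 339.2 and 422.6 in arf6/arf6 ARF8/arf8, and 385.7, 220.9 and 233.3 in wild-type. In stem it had 399.4 in arf6 arf8, 182.8 in arf6/arf6 ARF8/arf8 and 108.7 in wild-type. In every tissue arf6 arf8 was above both other genotypes. The difference from wild-type in older flowers was 1.99 (SE 0.25, adjusted p = 0.00459), and it lost its call without the stage 13-14 array of wild-type (0.0681) or of arf6 arf8 (0.058).

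CYP71B23 (AT3G26210) had 72.9, 240.0 and 665.9 in arf6 arf8 flowers, 42.3, 52.5 and 46.5 in arf6/arf6 ARF8/arf8, and 44.4, 22.2 and 105.2 in wild-type. Stem signals were 158.2 in arf6 arf8, 53.1 in arf6/arf6 ARF8/arf8 and 22.9 in wild-type. Only the wild-type stage 13-14 array and the 3 brightest arf6 arf8 arrays reached 100. The rise was 2.11 (SE 0.379, adjusted p = 0.0182). The call ended without the wild-type array of stage 11-12 (0.114) or 13-14 (0.0997) and without the arf6 arf8 stage 13-14 array (0.166).

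For CYP71B6 (AT2G24180), whose enzyme acts on indole-3-acetonitrile, arf6 arf8 flowers had 862.8, 1316.6 and 1723.4, arf6/arf6 ARF8/arf8 flowers 660.5, 538.4 and 681.0, and wild-type flowers 715.7, 579.2 and 510.8. Stem signals were 1220.2 in arf6 arf8, 843.6 in arf6/arf6 ARF8/arf8 and 680.9 in wild-type. All 12 arrays were bright, and arf6 arf8 was again above both other genotypes in every tissue. The rise in older flowers was 1.39 (SE 0.229, adjusted p = 0.0131), with the call lost without the stage 13-14 array of wild-type (0.163) or the arf6 arf8 array of stage 13-14 (0.138) or 11-12 (0.0518).

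CYP71B28 (AT1G13090) had 581.9 and 742.1 at stages 11-12 and 13-14 in arf6 arf8, 354.8 and 349.9 in arf6/arf6 ARF8/arf8, and 289.3 and 348.4 in wild-type. At stage 1-10 its signal was 367.9 in arf6 arf8, against 294.1 in arf6/arf6 ARF8/arf8 and 448.0 in wild-type, and in stem it had 401.5, 501.5 and 454.6 in the same order. Its arf6 arf8 signal was thus above the others at the older stages and not elsewhere. The rise of 0.94 (SE 0.226, adjusted p = 0.0473) was lost under 15 of 20 alternatives.

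The other members did not pass this test. CYP71B22 (AT3G26200) was nevertheless brighter in arf6 arf8 than in wild-type in each tissue, with 580.3 against 320.3 at stages 1-10, 726.6 against 264.2 at stages 11-12, 602.1 against 335.7 at stages 13-14 and 1718.9 against 400.1 in stem. Its fitted differences were 1.03 in older flowers (SE 0.36, adjusted p = 0.133) and 1.37 in younger tissue, that is stage 1-10 flowers with stem (SE 0.36, adjusted p = 0.335). CYP71B24, CYP78A9, CYP71B34, CYP71B35 and CYP71B5 had differences of 0.89, 0.57, 0.46, 0.35 and 0.01 in older flowers, and CYP71B37 one of -0.52, with adjusted p between 0.148 and 0.991.

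**Figure D2:**
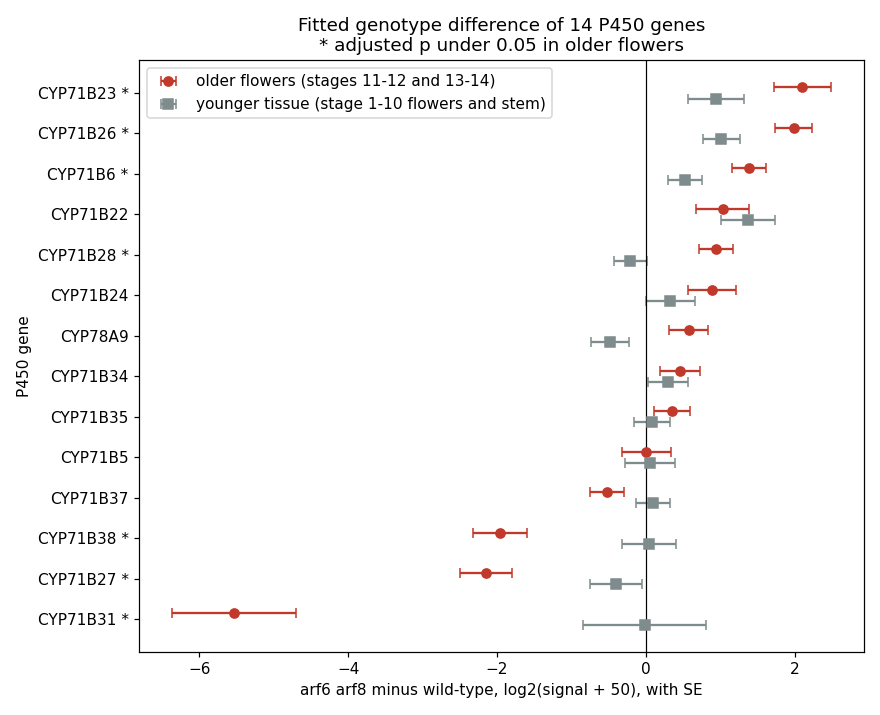
Fitted arf6 arf8 minus wild-type difference on the log2(signal + 50) scale (horizontal axis) for each of the 14 P450 genes, in older flowers (circles) and in younger tissue (squares), with SE bars from limma; asterisks mark an adjusted p under 0.05 in older flowers. CYP71B31 lies at -5.54 and CYP71B23 at 2.11 in older flowers, whereas in younger tissue the values run from -0.48 to 1.37.

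In younger tissue 0 of 14 genes passed (limma, 0.068% of all probe sets called), and before adjustment 4 had a p below 0.05, as did 7.14% of all probe sets. Without the stem array of arf6 arf8 or of wild-type, or in flower arrays alone, that number was 0. The 4 were CYP71B22 with the difference given above, CYP71B26 (1.01), CYP71B23 (0.95) and CYP71B6 (0.53). The difference between the effect in older flowers and that in younger tissue passed for 0 of 14 (0.295% of all probe sets), with 7 below 0.05 before adjustment (10.7% of all probe sets) and 4 without the arf6 arf8 stage 1-10 array. In younger tissue the fitted differences of CYP71B31, CYP71B38 and CYP71B27 were -0.01, 0.05 and -0.40. Wild-type CYP71B31 signals there were 1.6 at stages 1-10 and 1.4 in stem. The difference between the effects was -5.52 for CYP71B31 (SE 1.17, adjusted p = 0.134), -2.01 for CYP71B38 (0.198) and -1.74 for CYP71B27 (0.243). This test thus did not separate older flowers from younger tissue for these genes. The CYP71B31 value passed without the arf6/arf6 ARF8/arf8 array of stage 11-12 or of stage 13-14, and CYP71B31 and CYP71B38 both passed without the arf6 arf8 stage 11-12 array.

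Within single tissues, where 1 array per genotype allows no test, a member was counted as past 2-fold where (signal + 50) differed by a ratio of at least 2 and the brighter signal was at least 200. Between arf6 arf8 and wild-type, 0 of 14 did so at stages 1-10 (2.05% of all probe sets), 5 at stages 11-12 (7.51%), 6 at stages 13-14 (10.8%) and 2 in stem (4.15%). At stages 11-12 the genes were CYP71B23, CYP71B26, CYP71B22 and CYP71B6, with ratios of 4.02, 3.67, 2.47 and 2.17, and CYP71B31, lower by a ratio of 17.3. At stages 13-14 CYP71B23, CYP71B26 and CYP71B6 were higher, with ratios of 4.61, 4.30 and 3.16, while CYP71B31, CYP71B27 and CYP71B38 were lower by ratios of 124.4, 6.70 and 6.68. In stem CYP71B22 and CYP71B26 were higher, with ratios of 3.93 and 2.83.

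The intermediate genotype, with 1 remaining copy, was then set against both others in older flowers. Against arf6/arf6 ARF8/arf8, arf6 arf8 had more CYP71B23 (2.20, SE 0.379, adjusted p = 0.02), CYP71B26 (1.36, SE 0.25, adjusted p = 0.0235) and CYP71B6 (1.25, SE 0.229, adjusted p = 0.0235), or 3 of 14 genes where 4.06% of all probe sets passed and 2.09% were higher. CYP71B31 (-3.50, adjusted p = 0.0564), CYP71B38 (-1.48, 0.0608) and CYP71B27 (-1.06, 0.137) did not pass. CYP71B31 passed as lower with a pseudocount of 16 or without the stage 11-12 array of arf6 arf8 or of arf6/arf6 ARF8/arf8, and CYP71B38 without that arf6 arf8 array. Without the arf6 arf8 stage 13-14 array 0 genes passed. Without the arf6/arf6 ARF8/arf8 arrays that stood apart, CYP71B23 differed by 1.55 with an adjusted p of 0.058. CYP71B26 and CYP71B6 also lost the call without the arf6 arf8 stage 11-12 array (0.102 and 0.0793) or the arf6/arf6 ARF8/arf8 stage 11-12 array (0.0609 and 0.0618), and CYP71B6 without the arf6/arf6 ARF8/arf8 array of stage 1-10 (0.0514) or stem (0.0512). This comparison shares the arf6 arf8 arrays with the one against wild-type.

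Between arf6/arf6 ARF8/arf8 and wild-type 0 of 14 passed in older flowers (limma, 0.0% of all probe sets), with 5 below 0.05 before adjustment, as were 3.71% of all probe sets. That number was 1 without the wild-type stage 13-14 array, 2 without the arf6/arf6 ARF8/arf8 stage 13-14 array and 3 without the wild-type stage 11-12 array or the arf6/arf6 ARF8/arf8 array of stage 1-10 or stem. It was 1 without both arf6/arf6 ARF8/arf8 arrays that stood apart. The 5 were CYP71B31 (-2.03), CYP71B5 (-1.15), CYP71B27 (-1.09), CYP71B37 (-0.79) and CYP71B26 (0.63), each with an adjusted p of 1.00. CYP71B5 (AT3G53280) had 10.8, 51.1 and 105.0 in arf6 arf8 flowers of the 3 stages, 5.2, 3.3 and 8.6 in arf6/arf6 ARF8/arf8, and 41.5, 46.5 and 110.2 in wild-type. In stem it had 114.1 in arf6 arf8 and 28.3 in arf6/arf6 ARF8/arf8, with wild-type between them, so the intermediate genotype was lowest in each tissue, at signals where most values lie under the floor. By fold within a tissue, 0 of 14 differed between arf6/arf6 ARF8/arf8 and wild-type at stages 1-10 (5.31% of all probe sets), 1 at stages 11-12 (2.25%), 3 at stages 13-14 (5.74%) and 1 in stem (0.941%). CYP71B31 was lower than in wild-type at stages 11-12 and 13-14 (ratios of 7.69 and 2.18), CYP71B27 was lower at stages 13-14 (2.38), and CYP71B22 was higher at stages 13-14 (2.08) and in stem (2.15). Between arf6 arf8 and arf6/arf6 ARF8/arf8 the counts were 0 at stages 1-10 (6.43%), 3 at stages 11-12 (12.1%), 8 at stages 13-14 (10.1%) and 0 in stem (1.52%). At stages 13-14 CYP71B23, CYP71B26, CYP71B6, CYP71B34 and CYP71B24 were higher in arf6 arf8, with ratios of 7.42, 2.58, 2.43, 2.31 and 2.14, and CYP71B31, CYP71B38 and CYP71B27 lower by ratios of 57.1, 4.35 and 2.82.

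How the genes vary with flower stage was compared over the 3 genotypes. Between stages 13-14 and 1-10, 5 of 14 genes passed, where 18.7% of all probe sets did, 4 of them higher (9.18% of all) and 1 lower (9.52%). The count was 3 without the wild-type stage 13-14 array or the arf6/arf6 ARF8/arf8 stage 1-10 array. Of the genes that were higher, CYP71B31, CYP71B27 and CYP78A9 reached a signal of 100 in older flowers alone, so the floor admitted them through those stages. Of the markers, AMS of the tapetum list (-3.31) and SPL of the ovule list (-2.60) fell between the same stages. IRX15 and IRX15-L of the secondary wall list fell as well (-1.14 and -0.77). The other tapetum gene, EMS1, and the other ovule gene, INO, did not pass and did not fall. Each of these lists has 2 measured genes, so the list medians of -1.60 and -1.06 reflect the 1 gene that fell. The summed tapetum signal fell from stages 1-10 to 13-14 in arf6 arf8 (1485.1 to 633.4) and wild-type (2122.5 to 585.6). In arf6/arf6 ARF8/arf8 it rose (837.5 to 1080.9). Among the pollen genes 1 of 7, AGL65, rose (0.65), with a pollen median of 0.65. The summed pollen signal was 848.9, 1314.0 and 1381.4 at stages 13-14 in arf6 arf8, arf6/arf6 ARF8/arf8 and wild-type, against 803.0, 471.9 and 695.1 at stages 1-10. Their part in the P450 differences was not tested. CYP78A9 (AT3G61880), the carpel and fruit growth gene, rose by 1.75 (SE 0.271, adjusted p = 0.00155). Its signals at stages 13-14 were 278.3, 365.9 and 227.6 in arf6 arf8, arf6/arf6 ARF8/arf8 and wild-type, against 26.6, 71.6 and 56.5 at stages 1-10. In the same order it had 127.4, 70.8 and 44.6 at stages 11-12 and 30.2, 55.9 and 62.3 in stem. The gene kept its call under all 20 alternatives, and its rise was present in arf6 arf8, where CYP71B31, CYP71B27 and CYP71B38 stayed low.

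CYP71B37 (AT3G26330) fell (-1.43, SE 0.26, adjusted p = 0.00397). It had 30.2, 8.5 and 56.2 at stages 13-14 in arf6 arf8, arf6/arf6 ARF8/arf8 and wild-type, against 148.8, 171.8 and 170.8 at stages 1-10. Between these stages, at 11-12, it had 53.4, 47.6 and 111.2, and in stem 201.7, 246.9 and 149.5, so it was brighter in young flowers and stem than at stages 13-14 in every genotype. This call held under all 19 alternatives.

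CYP71B31 (4.34, SE 1.18, adjusted p = 0.0286) and CYP71B27 (1.91, SE 0.408, adjusted p = 0.00931) also rose with stage over the 3 genotypes. Per genotype the stage difference of CYP71B31 was 5.91 in arf6/arf6 ARF8/arf8 and 7.02 in wild-type, while both of its arf6 arf8 signals lay under 4. That of CYP71B27 was 1.81 in arf6/arf6 ARF8/arf8 and 3.39 in wild-type. In arf6 arf8 it was 0.53, with both CYP71B27 signals under the floor. The CYP71B31 call ended without the arf6/arf6 ARF8/arf8 or the wild-type array of stage 1-10 (0.0958 and 0.106) or of stage 13-14 (0.101 and 0.0972). CYP71B24 (AT3G26230) rose by 0.88 (SE 0.262, adjusted p = 0.0412), with 246.5, 88.7 and 123.5 at stages 13-14 against 73.0, 20.5 and 81.8 at stages 1-10. Its call was lost under 12 of 19 alternatives, among them each of 8 arrays left out, with an adjusted p of up to 0.171. Without the arf6/arf6 ARF8/arf8 arrays of stages 1-10 and 13-14, which stood apart, CYP71B31, CYP71B27 and CYP71B24 had adjusted p of 0.163, 0.056 and 0.0999.

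Divided into steps, 0 of 14 genes passed between stages 11-12 and 1-10 (limma, 8.64% of all probe sets), with 1, CYP71B37 (-0.86), below 0.05 before adjustment, where 22.8% of all probe sets were. Of the 7 pollen genes 4 rose in this step, with a median of 1.27. CYP71B37 passed without the wild-type stem array or the arf6/arf6 ARF8/arf8 stage 13-14 array. Between stages 13-14 and 11-12, CYP78A9 alone passed (1.41, SE 0.271, adjusted p = 0.0251), 1 of 14 where 1.91% of all probe sets did, 0.55% being higher. Without the arf6 arf8 stage 13-14 array it had an adjusted p of 0.0589, and CYP71B31, CYP71B38 and CYP71B27 passed in its place. The call of CYP78A9 ended as well without the wild-type array of stage 11-12 (0.191) or 13-14 (0.0601) and without the arf6/arf6 ARF8/arf8 array of stage 11-12 (0.157), 13-14 (0.107) or stem (0.0517). Without both arrays that stood apart its adjusted p was 0.212.

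Stem differed from stage 1-10 flowers in 2 of 14 genes, where 13.6% of all probe sets passed, 6.05% higher and 7.52% lower. CYP71B22 rose by 1.01 (SE 0.28, adjusted p = 0.0387), with 1718.9, 917.0 and 400.1 in stems of arf6 arf8, arf6/arf6 ARF8/arf8 and wild-type against 580.3, 353.6 and 320.3 in young flowers. CYP71B26 fell (-0.94, SE 0.258, adjusted p = 0.036), with 399.4, 182.8 and 108.7 in stem against 577.0, 383.3 and 385.7 in young flowers. Per genotype, in that order, the stem difference was 1.49, 1.26 and 0.28 for CYP71B22, and -0.48, -0.90 and -1.46 for CYP71B26. In both genes stem signals were ordered arf6 arf8 above arf6/arf6 ARF8/arf8 above wild-type. The CYP71B22 call was lost under 9 and that of CYP71B26 under 10 of 19 alternatives, and 0 genes passed without the wild-type stage 11-12 array or without the arf6 arf8 stem, arf6/arf6 ARF8/arf8 stem or arf6/arf6 ARF8/arf8 stage 1-10 array. CYP71B22 also lost its call without the arf6 arf8 array of stage 1-10 (0.11) or 11-12 (0.0508). CYP71B26 did so without the wild-type array of stem (0.129) or of stages 1-10, where its difference was -0.63 (0.119), and without the arf6/arf6 ARF8/arf8 stage 11-12 array (0.0529). Without both arrays that stood apart the adjusted p was 0.0892 for CYP71B22 and 0.125 for CYP71B26.

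**Figure D3:**
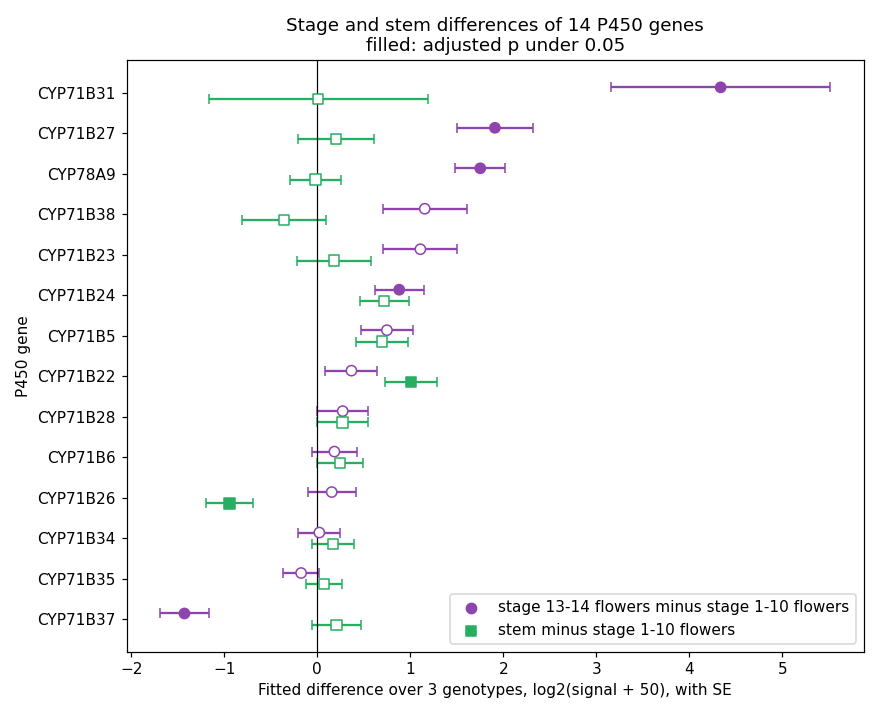
Fitted differences over 3 genotypes on the log2(signal + 50) scale (horizontal axis) for the 14 P450 genes, stage 13-14 flowers minus stage 1-10 flowers (circles) and stem minus stage 1-10 flowers (squares), with SE bars; filled symbols have an adjusted p under 0.05 in limma. CYP71B31 (4.34), CYP71B27 (1.91), CYP78A9 (1.75) and CYP71B24 (0.88) lie to the right and CYP71B37 (-1.43) to the left for stage, and CYP71B22 (1.01) and CYP71B26 (-0.94) stand out for stem.

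**Figure D4:**
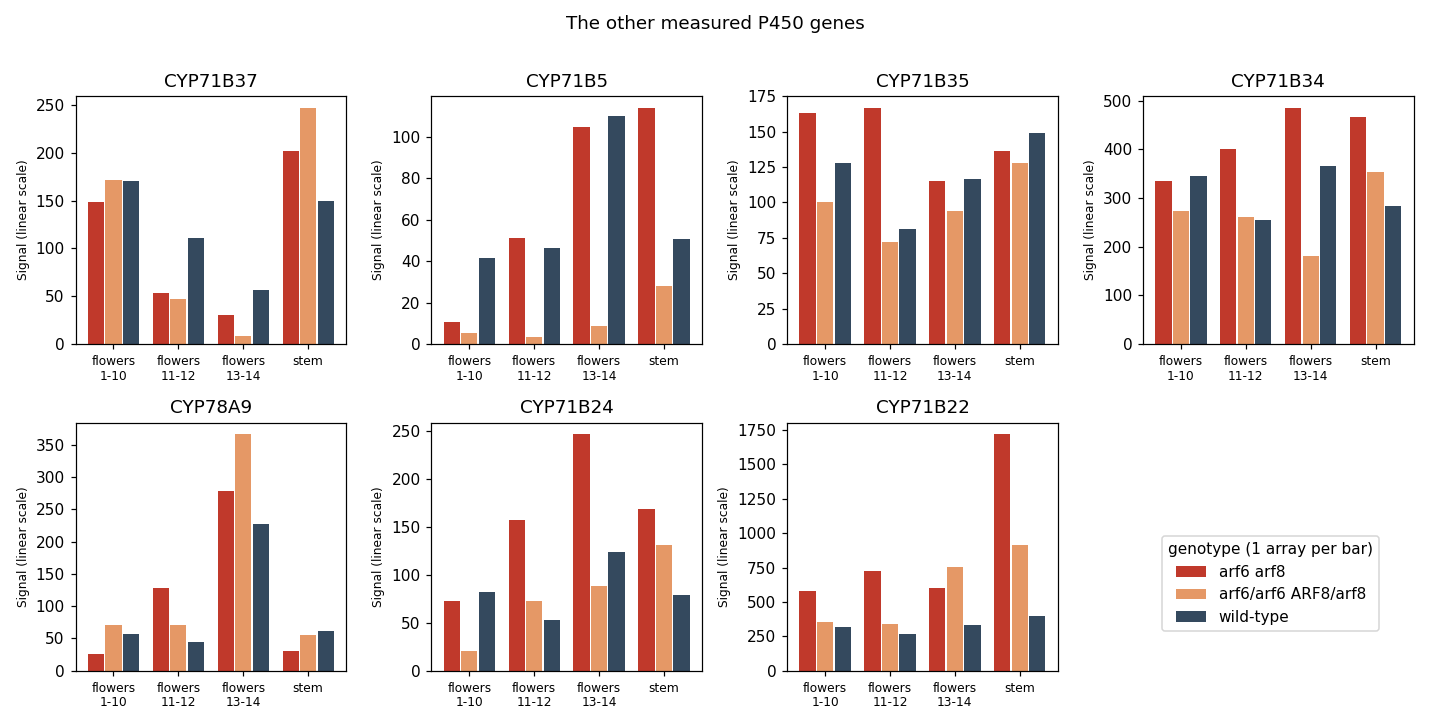
Signal on a linear scale (vertical axis, a separate scale for each gene) in flowers of 3 stage classes and in stem, for the 7 P450 genes that did not pass the test in older flowers; each bar is 1 array, arf6 arf8 left, arf6/arf6 ARF8/arf8 middle and wild-type right. CYP78A9 is brightest at stages 13-14 in each genotype, CYP71B37 is dim there, CYP71B5 is lowest in arf6/arf6 ARF8/arf8 in each tissue, and CYP71B22 reaches 1718.9 in arf6 arf8 stem.

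Positions in the genome were not used by the rule. In the TAIR10.1 gene order 7 of the 14, CYP71B22, CYP71B23, CYP71B24, CYP71B26, CYP71B34, CYP71B35 and CYP71B37, lie in 1 run on chromosome 3 together with CYP71B16, CYP71B21, CYP71B25 and CYP71B36, which did not reach the floor. The run holds 11 of the 22 probe sets with a symbol of the rule, so the members lie in it no more often than those probe sets do. CYP71B22 and CYP71B23 are direct neighbours, and so are CYP71B34 and CYP71B35. Within the run, CYP71B23 and CYP71B26 rose in arf6 arf8 older flowers, CYP71B37 fell with stage, and CYP71B34 and CYP71B35 passed no test, with signals of 181.3 to 485.3 and 72.2 to 166.8 over the 12 arrays. CYP71B36, between CYP71B35 and CYP71B37, stayed at 28.2 or less.

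The genes that fell in arf6 arf8 lie outside this run. CYP71B31 and CYP71B5 stand on chromosome 3 with 2 genes between them, and the CYP71B30P pseudogene had signals of 2.2 to 24.9. On chromosome 1, CYP71B27 and CYP71B28, with 1 gene between them, differed in opposite directions in arf6 arf8 older flowers, and CYP71B29 next to CYP71B28 had 11.6 to 22.3. How far probe sets of such similar genes also detect one another's transcripts was not tested.

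Other genes of the pathways in which P450 enzymes act were few in the annotation. Of 3 measured phenylpropanoid genes (HCT, CCR2, CCOAMT) 0 differed in arf6 arf8 older flowers, with a median of -0.10, while CCR2, a cinnamoyl-CoA reductase gene, fell by 1.17 on the log2 scale between stages 13-14 and 1-10 (adjusted p = 0.00211). Of 2 glucosinolate genes, BCAT4, an aminotransferase gene of methionine chain elongation, had a difference of 1.65 (adjusted p = 0.0543) and UGT74B1 one of 0.66 (0.204) in arf6 arf8 older flowers. BCAT4 rose by 1.55 (adjusted p = 0.0329) between stages 13-14 and 1-10 over the 3 genotypes, and UGT74B1 did not pass, with a list median of 0.69. The summed signal of the 2 genes went from 665.3 at stages 1-10 to 1449.2 at stages 13-14 in arf6 arf8. It went from 646.5 to 702.5 in arf6/arf6 ARF8/arf8 and from 728.1 to 549.1 in wild-type. The wax ester synthase gene WSD1, the 1 measured gene of the cutin and wax list, fell by 1.54 on the log2 scale in arf6 arf8 older flowers (adjusted p = 0.0459), and the lycopene cyclase gene LYC had a difference of 0.15 (0.721). With stage, between 13-14 and 1-10, LYC rose by 0.60 (adjusted p = 0.0331), and in stem against stages 1-10 CCR2 fell by 1.13 on the log2 scale (adjusted p = 0.00319). The lists of P450 reductases and cytochrome b5 and of sporopollenin and brassinosteroid genes had 0 members with a probe set of 1 gene, and the terpene list had 0 that reached the floor.

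Of the markers of other cell types, 1 pollen gene and 1 secondary wall gene passed in arf6 arf8 older flowers. Among all kept probe sets 5.96% passed there, 3.11% as lower. Of 7 measured pollen genes 1, the sperm histone gene MGH3, fell in arf6 arf8 against wild-type (-1.54, adjusted p = 0.0188), with a list median of -0.23. The summed signal of the 7 genes was 2031.5 and 848.9 at stages 11-12 and 13-14 in arf6 arf8, against 2716.0 and 1381.4 in wild-type. Of 3 secondary wall genes 1, IRX15-L, fell (-1.16, adjusted p = 0.0203), with sums of 421.0 and 327.8 against 798.3 and 436.3. Of 2 tapetum, 2 ovule, 2 floral organ and 1 photosynthesis genes 0 passed. Their part in the P450 differences was not tested.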

How the data were processed

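RNA of 12 samples was hybridised to 1 oligonucleotide array each. MAS5 is named, with no version, in the submitters' processing notes. What the authors deposited is 1 linear signal intensity for each probe set and array. No detection calls were used here. The number of arrays limits the precision.

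Arrays were rescaled to a mean of 500 without the lowest and highest 2% of values, with log2 values changing by at most 0.000128. Log2(signal + 50) was then taken. Of 22746 probe sets that are not controls, 17642 with a signal of 100 in at least 1 array were kept. Gene symbols come from the platform's annotation. Loci come from a RefSeq table of assembly TAIR10.1, matched for 14 of 14 members.

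Differences were fitted in limma 3.58.1 (R 4.3.3), using lmFit and a trended eBayes, over all 12 arrays and all kept probe sets. Genotypes were compared with genotype by phase plus tissue within phase as terms, and tissues with genotype plus tissue as terms. P-values are two-sided and adjusted by the Benjamini-Hochberg method, with a threshold of 0.05. The scripts were tested on simulated data.

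Members and lists were chosen with earlier results of these data known. The rule for named genes took members past the threshold (up to 12 each way) or past 2-fold within a tissue (up to 6 each way), the brightest member of a clan, members with a listed role, and up to 4 genes past the threshold in each other list. Others were named after their values were seen. In the lists, 2 symbols that belong to a different gene (LCR, FDH) were left out.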

Additional observations from a re-analysis of the deposited data

How the results depend on the processing

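No called difference changed sign under any alternative. Of 18 calls of a gene in a comparison, 2 held under every alternative that tested the gene. They were CYP78A9 and CYP71B37 between stages 13-14 and 1-10. The other 16 lost the call in 95 of their 309 refits. Of 85 counts of P450 genes recomputed with another pseudocount, filter, normalization, variance model or set of arrays, 72 stayed within 1.5 times the count reported. Among those 72 are counts of 0 that stayed 0, which say little of how stable the other counts are. They cover arf6/arf6 ARF8/arf8 against wild-type, younger tissue, the difference between older and younger tissue, stages 11-12 against 1-10, and fold counts at stages 1-10. In flower arrays alone, 2 genes in place of 7 passed between arf6 arf8 and wild-type in older flowers, 0 in place of 3 against arf6/arf6 ARF8/arf8, and 0 in place of 1 between stages 13-14 and 11-12. With a filter of 200 in 3 arrays, which tests 7 of the 14 genes, 4 passed between arf6 arf8 and wild-type and 2 in place of 5 between stages 13-14 and 1-10. A pseudocount of 16 gave 0 between stages 13-14 and 11-12, and no filter gave 0 in place of 2 between stem and stages 1-10. Without the arf6/arf6 ARF8/arf8 arrays of stages 1-10 and 13-14 the counts were 0 between stages 13-14 and 11-12, 3 between stages 13-14 and 1-10 and 0 for stem, and without all 4 arrays of that genotype 0, 2 and 0. The cause was not tested. With each of 12 arrays left out in turn, the counts ran from 0 to 7 for arf6 arf8 against wild-type in older flowers, 0 to 3 against arf6/arf6 ARF8/arf8, and 0 to 2 for the difference between older and younger tissue. They ran from 0 to 1 between stages 11-12 and 1-10, 0 to 3 between stages 13-14 and 11-12, 3 to 6 between stages 13-14 and 1-10, and 0 to 2 for stem. Counts by fold within a tissue against wild-type stayed within 1.5 times with a pseudocount of 16 and with quantile normalization, the alternatives run for them. The labels give no replicate numbers, so no replicate block was fitted, and tissue, which every genotype shares, is already a term of each fit. Signals under 100 are low, and ratios that rest on them are limited by array background.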

Other observations

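Another probe set is shared by CYP71B19 and CYP71B20 and was left out because it belongs to several genes. Its signal at stages 1-10, 11-12 and 13-14 and in stem was 470.3, 1195.5, 1577.4 and 175.9 in arf6 arf8, 499.0, 633.4, 797.7 and 139.5 in arf6/arf6 ARF8/arf8, and 429.9, 495.0, 946.4 and 202.2 in wild-type. At both older stages it was brightest in arf6 arf8, as CYP71B23, CYP71B26 and CYP71B6 were. The probe set for CYP718, whose symbol has no letter after the family number, had signals of 5.3 to 11.0 over the 12 arrays.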
